A study of Mus musculus with 6 samples.

Results

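The genes described here encode receptors for cytokines, for interferons and for ligands of the tumour necrosis factor (TNF) family. They were measured in resident macrophages of the mouse peritoneal cavity with and without the transcription factor GATA6. A list of 40 receptor genes was matched by gene symbol to the array annotation. Of these, 36 had at least 1 probe set with that single symbol, among 18194 genes so annotated, and they had 71 of the 45101 probe sets; Il11ra1, Il2rg, Il1rl1 and Tnfrsf26 had none and were not analysed here. After a filter on low signals, 30 genes with 52 probe sets were tested among 12511 genes. The 6 genes left out by the filter were Osmr, Il1r1, Il1r2, Il1rl2, Il18r1 and Il17rc. The study compared 3 Gata6-KO with 3 Gata6-WT samples, 1 array per sample. Gata6-KO mice carried a conditional, floxed deficiency of Gata6 and Gata6-WT mice were wild type. The mice in both groups were 7 weeks old, cells from 2 to 3 mice were pooled for each sample, and in both groups the sort took CD11b-high cells with low or no MHC class II. No label states the Cre driver or the part of Gata6 that is deleted.

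Most of these receptors have no enzyme activity of their own. Cytokine receptors of the haematopoietin and interferon classes work as pairs or larger sets of chains, in which private chains bind one ligand and shared chains serve several. The shared chains include the common beta chain of the GM-CSF and IL-3 receptors, gp130 of the IL-6 family and the common gamma chain; ligand binding activates JAK kinases and STAT factors. IL-1 family receptors pair a ligand-binding chain with an accessory chain and signal through MYD88, whereas TNF receptors cluster around trimeric ligands and recruit TRAF or death-domain adaptors. The CSF1 receptor is a tyrosine kinase, and macrophages depend on it for survival.

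Median signals were 79.7 to 88.5 per array, and pairs of arrays had correlations of 0.964 to 0.972 within a genotype and 0.930 to 0.951 between genotypes, as a description. The targeted gene was lower in every Gata6-KO array at 2 of its 3 probe sets, with 173 to 184 against 337 to 483 at the first and 2998 to 4452 against 5405 to 7279 at the second, and overlapped at the third (1363 to 2161 against 1436 to 2276). Whether these probe sets lie in the deleted part is not known here, so they check little about the labels. Replicate 1 was of male type in both genotypes, with Xist at 102 and 113 (at least 11158 on the other arrays) and Y-linked Eif2s3y at 3494 and 3674 (at most 15.3 on the others). Differences are therefore also given within replicate 1 (1 array against 1, no test) and within replicates 2 and 3. Of 7 peritoneal macrophage markers, Adgre1, Selp, Icam2, Timd4 and Cd68 were lower in Gata6-KO and Itgam and Csf1r did not pass, with a summed signal of 126255 to 128250 in Gata6-KO and 182341 to 211588 in Gata6-WT.

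Receptor genes changed in both directions, by 1.40- to 3.90-fold outside Il18rap. The fold of Il18rap depends on the pseudocount, and so does that of Il21r, the upper end of this range. In Gata6-KO macrophages the receptor genes Csf2rb, Csf3r, Il6st, Il27ra, Crlf2, Ifnar2 and Il18rap fell and Il21r, Ifngr1 and Ifnar1 rose (limma, adjusted p under 0.05), that is 10 of 30 tested genes, where 13.1% of all tested genes passed. Lower calls numbered 7 (background 7.46%) and higher calls 3 (background 5.61%), and the median log2 difference of the 30 was -0.04, as it was over all genes. The groups did not overlap in 12 of the 30 genes, with Gata6-KO above in 4 (background 15.0%) and below in 8 (background 19.4%), where 34.4% of all tested genes did not overlap. Without Il18rap, which had 2 Gata6-KO signals under the filter level, 9 of 29 passed. The receptor list was chosen with earlier results of these data known, so these shares beside the background are a description and no test. In these bulk samples, fewer cells that express a gene and less RNA of that gene per cell cannot be told apart. With a fit that did not model the mean-variance trend, 3 of the 10 calls were kept, those of Il21r, Crlf2 and Il18rap, and the other 7 had adjusted p-values of 0.051 to 0.095. In the arrays of replicates 2 and 3 alone 6 receptor genes passed.

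**Figure D1:**
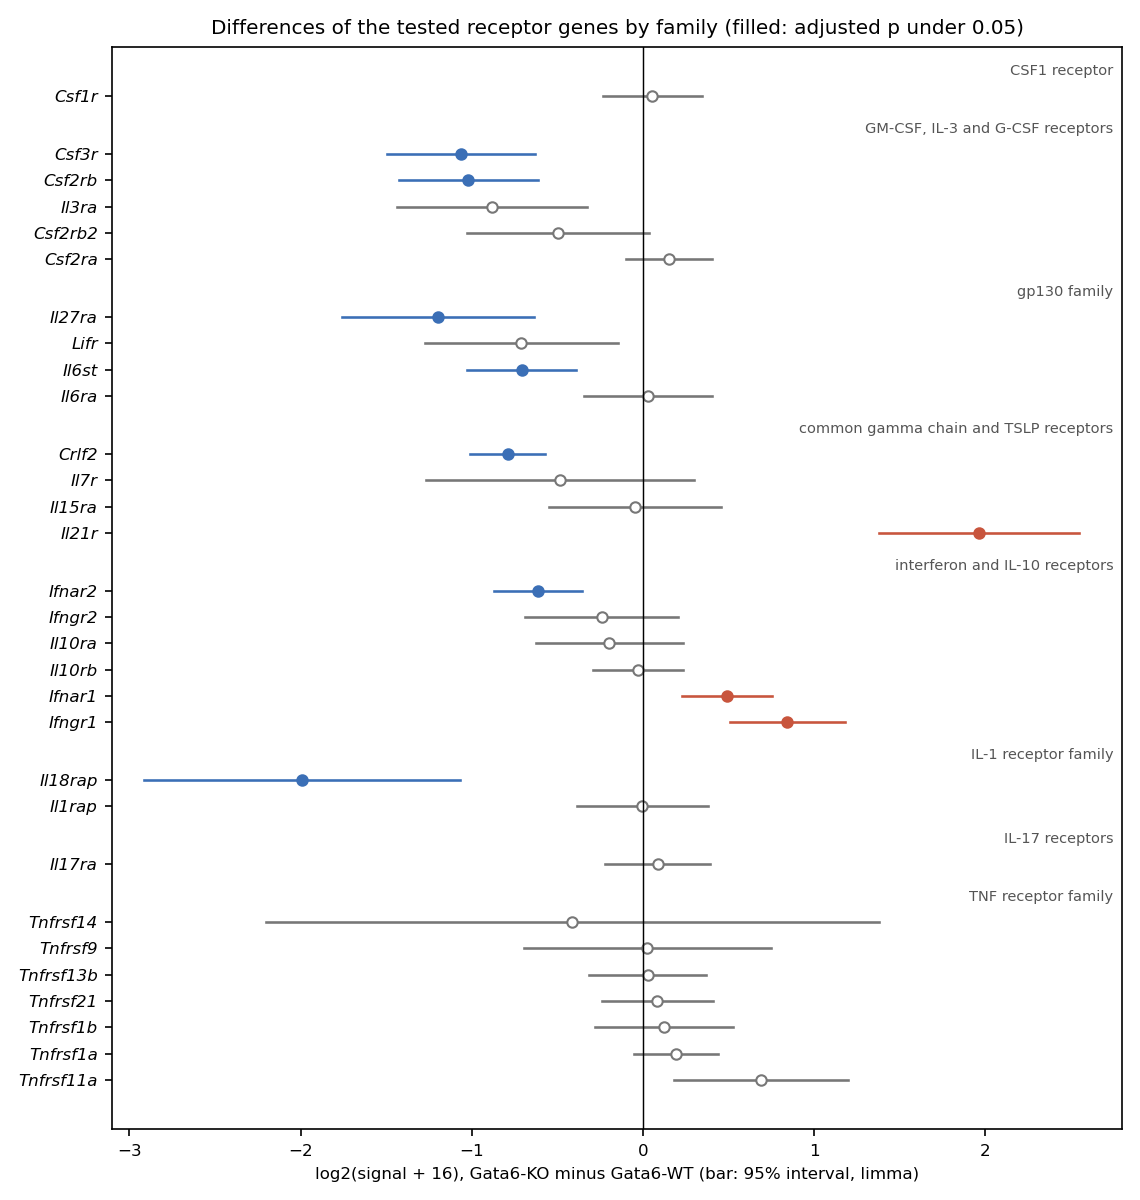
Log2 difference (Gata6-KO minus Gata6-WT, on the log2(signal + 16) scale) of the 30 tested receptor genes, each at its brightest probe set, grouped by family. Bars are 95% intervals of the limma fit, n = 3 arrays per genotype, and filled points passed an adjusted p of 0.05: 7 lower in blue and 3 higher in red.

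Among receptors for colony-stimulating factors, Csf2rb and Csf3r fell about 2-fold, while Csf1r and Csf2ra did not pass. Csf2rb encodes the common beta chain that signals for GM-CSF, IL-3 and IL-5. Its signals were 3480, 3977 and 2373 in Gata6-KO replicates 1, 2 and 3 and 5778, 6721 and 7097 in Gata6-WT. The genotypes did not overlap, and the means were 3277 ± 821 and 6532 ± 680 (SD, n = 3; log2 -1.02 ± 0.18 SE, limma adjusted p = 0.0067). A second Csf2rb probe set gave 977, 929 and 696 against 1758, 2009 and 2103 (log2 -1.17, limma adjusted p = 0.0013). Csf2rb2, the neighbouring gene, encodes a beta chain that serves IL-3 alone in the mouse. It had 937, 1125 and 546 against 1047, 1182 and 1332, with overlapping groups (log2 -0.50, 95% interval -1.03 to 0.04, limma adjusted p = 0.23). The Csf2rb and Csf2rb2 genes are close copies, so their probe sets may share signal; 1 probe set annotated to both was not used.

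Csf3r, the receptor of the neutrophil growth factor G-CSF, had 2842, 2864 and 1955 in Gata6-KO and 4488, 4807 and 6809 in Gata6-WT. The groups did not overlap (means 2554 ± 519 and 5368 ± 1258, log2 -1.06 ± 0.19, limma adjusted p = 0.0074). Csf3r is a known neutrophil gene, and the summed signal of 5 neutrophil markers was also lower in Gata6-KO, at 435 to 824 against 970 to 1616. That sum was mostly S100a8, which fell (log2 -1.20, limma adjusted p = 0.029). The granule gene Camp was at 9.67 to 52.1 and S100a9 at 2.83 to 26.8 on all 6 arrays, both near the bottom of the scale. Cxcr2 was at 32.0 to 48.8 in Gata6-KO against 3.03 to 36.1 in Gata6-WT. Camp, S100a9 and Cxcr2 had higher means in Gata6-KO, with overlapping groups. Ngp overlapped too, at 51.1 to 115 against 71.7 to 110. The part of neutrophils in the fall of Csf3r was not tested.

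The private chains of this family stood apart from Csf2rb only in part. Csf2ra, which binds GM-CSF, had 3237, 3122 and 2888 against 2540, 2740 and 3053 (log2 0.15, 95% interval -0.10 to 0.40, limma adjusted p = 0.45). Il3ra, the IL-3 binding chain, had 101, 178 and 179 in Gata6-KO and 329, 243 and 294 in Gata6-WT. These groups did not overlap, but the difference narrowly missed the threshold (log2 -0.88 ± 0.25, 95% interval -1.43 to -0.33, limma adjusted p = 0.051). It was -1.56 in replicate 1 and -0.54 in replicates 2 and 3. IL-3 acts on mast cells, and the summed signal of 7 mast cell markers was 350 to 504 in Gata6-KO and 551 to 647 in Gata6-WT, with Cpa3 at 125 to 206 against 250 to 305 and Cma1 at 26.1 to 125 against 157 to 252, neither past the threshold. Tpsb2 was higher in 2 Gata6-KO arrays (20.4 to 106 against 10.3 to 30.3), and Kit, Mcpt4, Fcer1a and Ms4a2 were at 1.47 to 61.7 with overlapping groups. The part of mast cells in the Il3ra values was not tested. Csf1r was bright on every array, with 63302, 54739 and 54074 in Gata6-KO against 46856, 61207 and 58115 in Gata6-WT (log2 0.06, 95% interval -0.23 to 0.34, limma adjusted p = 0.84). Its 3 probe sets had log2 differences of 0.06 to 0.17. The interval for Csf1r leaves out a change as large as that of Csf2rb in either direction.

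**Figure D2:**
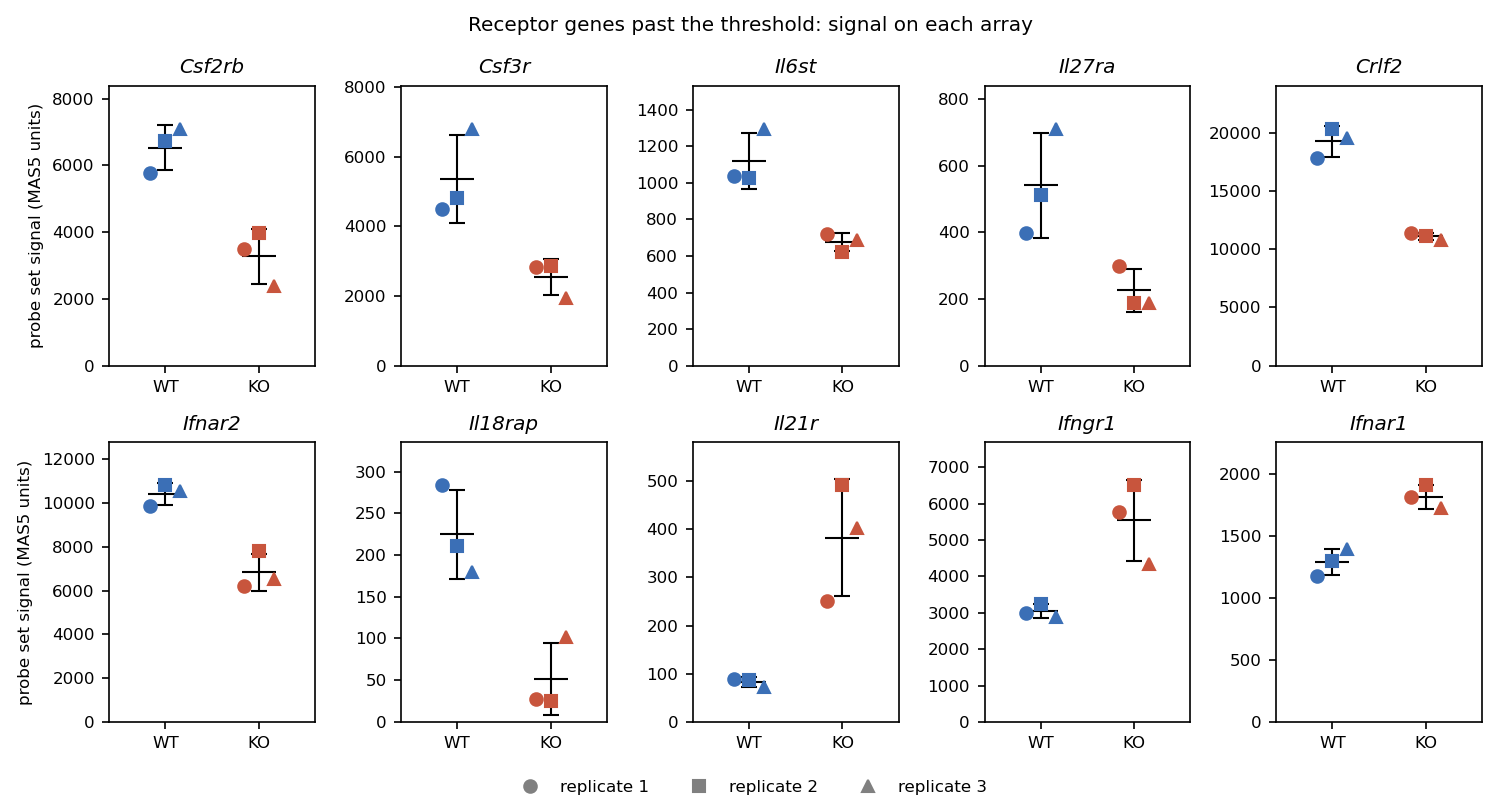
Signal (linear MAS5 units, axis from 0) of the 10 receptor genes past the threshold on each of the 6 arrays, at the brightest probe set. Points are arrays with a symbol for each replicate number, and bars are the mean and SD of 3 arrays; in each panel the Gata6-KO and Gata6-WT arrays do not overlap.

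In the gp130 family, Il6st and Il27ra fell, Lifr was lower without passing, and Il6ra did not differ detectably. Il6st encodes gp130 itself, the signalling chain shared by IL-6, IL-11, IL-27, LIF and oncostatin M. Its brightest probe set had 721, 620 and 687 in Gata6-KO and 1036, 1027 and 1296 in Gata6-WT, without overlap (means 676 ± 51.1 and 1119 ± 153, log2 -0.71 ± 0.14, limma adjusted p = 0.012). The other 3 tested Il6st probe sets had log2 differences of -0.37, -0.04 and 0.07 and did not pass, and the mean of all 4 gave -0.26 (limma adjusted p = 0.23). Without Gata6-KO replicate 2 the adjusted p at the brightest probe set was 0.0502. Il27ra, the chain that pairs with gp130 to bind IL-27, had 300.5, 189 and 189 against 399, 513 and 711 (means 226 ± 64.4 and 541 ± 158, log2 -1.20 ± 0.25, limma adjusted p = 0.015). Every Gata6-KO array was below every Gata6-WT array, but the difference was -0.39 in replicate 1 and -1.60 in replicates 2 and 3. The Il27ra call was lost without Gata6-KO replicate 2 (limma adjusted p = 0.056) or Gata6-KO replicate 3 (0.058).

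Lifr, the LIF binding chain, had 1200, 1358 and 2180 in Gata6-KO and 2012, 2245 and 3482 in Gata6-WT. Gata6-KO replicate 3 thus overlapped the wild type arrays, and replicate 3 was the highest array of both genotypes. The difference was -0.74 in replicate 1 and -0.69 in replicates 2 and 3. The 2 tested Lifr probe sets had log2 differences of -0.71 and -0.69 (limma adjusted p = 0.11 and 0.097), and without Gata6-KO replicate 3 the first was -0.96 (limma adjusted p = 0.039). Il6ra, the IL-6 binding chain, had 2689, 2378 and 1811 against 2240, 2549 and 1897 (log2 0.03, 95% interval -0.34 to 0.41, limma adjusted p = 0.93). The oncostatin M receptor gene Osmr had signals of 2.01 to 89.2 over its 3 probe sets and was below the filter.

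Among the chains that pair with the common gamma chain and their relative Crlf2, Il21r had the largest rise of all the tested receptor genes and Crlf2 the smallest p-value of the falls. Il21r encodes the binding chain for IL-21, a cytokine of activated T cells. Its signals were 252, 492 and 403 in Gata6-KO and 88.8, 88.1 and 72.1 in Gata6-WT. Each Gata6-KO array was at least 2-fold above the wild type arrays (means 382 ± 121 and 83.0 ± 9.49, 3.90-fold, log2 1.96 ± 0.26, limma adjusted p = 0.0014). The difference was 1.35 in replicate 1 and 2.27 in replicates 2 and 3, and 1.76 to 2.23 with 1 array left out. The summed signal of 5 T cell markers overlapped, at 180 to 258 in Gata6-KO and 135 to 286 in Gata6-WT. Only 1 of these 5 markers was above the filter, and the part of other cells in the rise of Il21r was not tested.

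Crlf2 encodes the binding chain for thymic stromal lymphopoietin (TSLP), which works with the IL-7 receptor chain. It was bright, at 11428, 11142 and 10804 in Gata6-KO and 17820, 20361 and 19595 in Gata6-WT. Arrays of 1 genotype lay close together and the groups were well apart (means 11124 ± 312 and 19259 ± 1304, log2 -0.79 ± 0.10, limma adjusted p = 0.00095). The change was 1.73-fold. Its partner Il7r was near the filter level, with 28.8, 56.9 and 46.7 against 69.6, 75.6 and 55.3 (log2 -0.48, 95% interval -1.26 to 0.30, limma adjusted p = 0.44). Il15ra, which binds IL-15 and presents it to neighbouring cells, had 477, 514 and 695 against 445, 539 and 782 and did not pass (log2 -0.04, 95% interval -0.55 to 0.46, limma adjusted p = 0.93).

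Among the interferon and IL-10 receptors, both chains of the type I interferon receptor changed, in opposite directions, and 1 chain of the interferon gamma receptor rose. Ifngr1 encodes the ligand-binding chain for interferon gamma. It had 5774, 6516 and 4340 in Gata6-KO and 2998.5, 3248 and 2879 in Gata6-WT, without overlap (means 5544 ± 1106 and 3042 ± 188, log2 0.84 ± 0.15, limma adjusted p = 0.0067). Ifngr2, the accessory chain, had 1446, 1075 and 1123 against 1573, 1048 and 1755 (log2 -0.24, 95% interval -0.69 to 0.21, limma adjusted p = 0.51). A second, dimmer Ifngr2 probe set was at 0.12 and did not pass. In replicates 2 and 3 alone the Ifngr1 difference was 0.80 (limma adjusted p = 0.063).

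Ifnar2, the high-affinity chain for type I interferons, had 6186, 7800 and 6526 in Gata6-KO and 9868, 10821 and 10557 in Gata6-WT. The groups did not overlap (means 6837 ± 851 and 10415 ± 492, log2 -0.61 ± 0.11, limma adjusted p = 0.0087). Its other 2 probe sets were at -0.27 and -0.21 and did not pass, and the mean of the 3 was -0.36 (limma adjusted p = 0.088). Ifnar1, the partner chain, had 1811, 1910 and 1721 in Gata6-KO and 1177, 1296 and 1393.5 in Gata6-WT (means 1814 ± 94.5 and 1289 ± 109, log2 0.49 ± 0.12, limma adjusted p = 0.027). The groups were separate, but the second Ifnar1 probe set was at 0.02 and the mean of both at 0.25 (limma adjusted p = 0.29). The Ifnar1 call was lost without Gata6-KO replicate 1 (limma adjusted p = 0.077), 2 (0.10) or 3 (0.052) or Gata6-WT replicate 1 (0.077) or 2 (0.080), and with median scaling of the arrays (0.053).

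The IL-10 receptor chains gave no call. Il10ra, the binding chain of the anti-inflammatory cytokine IL-10, had 1480, 2051 and 1161 against 1690, 1608 and 1953 (log2 -0.19, 95% interval -0.63 to 0.24, limma adjusted p = 0.58). Il10rb, the shared second chain, had 9131, 10011 and 7883 against 8634, 9885 and 8978 (log2 -0.03, 95% interval -0.29 to 0.23, limma adjusted p = 0.91). The second tested probe sets, both dimmer, were at log2 -0.64 for Il10ra and -0.31 for Il10rb and did not pass. In the RefSeq annotation 4 genes of this family lie side by side on chromosome 16 with no other protein-coding gene between them, in the order Ifnar2, Il10rb, Ifnar1, Ifngr2. Their log2 differences in that order were -0.61, -0.03, 0.49 and -0.24.

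Promoters of Ifnar1 and Ifnar2 are printed because these genes, with Il10rb between them on chromosome 16, changed in opposite directions. Those of Il21r and Il18rap are printed for the largest rise and the largest fall among the tested receptor genes. The fall of Il18rap has the limits given with its values. Each promoter is the RefSeq sequence of 300 bases, 250 before and 50 from the transcription start, in GRCm38.p6. Capitals mark forms that GATA factors are known to bind, searched on both strands: AGATAA, also with T as its first base, G as its last base or both, which gives 4 forms.
Ifnar1 (chr16:91484965-91485264, plus strand): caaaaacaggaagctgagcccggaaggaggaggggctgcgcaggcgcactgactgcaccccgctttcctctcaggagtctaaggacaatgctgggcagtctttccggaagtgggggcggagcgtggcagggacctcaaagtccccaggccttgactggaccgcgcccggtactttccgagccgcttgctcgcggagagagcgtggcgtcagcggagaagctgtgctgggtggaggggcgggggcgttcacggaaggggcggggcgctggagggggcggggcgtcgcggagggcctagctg
Ifnar2 (chr16:91372533-91372832, plus strand): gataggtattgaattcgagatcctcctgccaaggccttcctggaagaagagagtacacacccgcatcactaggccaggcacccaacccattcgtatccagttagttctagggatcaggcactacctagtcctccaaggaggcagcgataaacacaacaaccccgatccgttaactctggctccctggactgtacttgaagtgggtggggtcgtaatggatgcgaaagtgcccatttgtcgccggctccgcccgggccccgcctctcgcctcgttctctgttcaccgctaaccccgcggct
Il21r (chr7:125603179-125603478, plus strand): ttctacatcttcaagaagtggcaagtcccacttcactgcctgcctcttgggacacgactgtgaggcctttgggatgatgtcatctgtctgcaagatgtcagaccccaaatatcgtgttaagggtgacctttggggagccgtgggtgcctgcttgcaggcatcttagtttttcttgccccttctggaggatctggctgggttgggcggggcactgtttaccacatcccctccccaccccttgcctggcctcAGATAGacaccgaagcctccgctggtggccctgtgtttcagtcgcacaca
Il18rap (chr1:40515112-40515411, plus strand): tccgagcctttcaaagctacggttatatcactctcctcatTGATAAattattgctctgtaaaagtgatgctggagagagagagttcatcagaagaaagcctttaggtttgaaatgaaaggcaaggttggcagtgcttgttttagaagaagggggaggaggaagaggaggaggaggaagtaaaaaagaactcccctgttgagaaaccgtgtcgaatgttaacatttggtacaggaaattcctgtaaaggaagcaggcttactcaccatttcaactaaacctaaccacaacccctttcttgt
Il21r held 1 form that begins at base 1 of the transcript, Il18rap held 1 that begins 210 bases before the start, and the Ifnar1 and Ifnar2 windows held none. Of 41 promoters of 33 listed receptor genes, 26.8% had at least 1 of the 4 forms, where 29.8% of all 32851 promoters of the table did. AGATAA alone was in 7.3% of the receptor promoters and 11.2% of all promoters, and in 0 of the 8 promoters listed for the genes that changed. Csf2rb and Il27ra are not among those 8. A match is a description of letters in this window and no evidence of binding.

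In the IL-1 receptor family, Il18rap fell, Il1rap did not pass and Il1r1 was low in wild type cells and lower still in Gata6-KO cells. Il18rap encodes the accessory chain of the IL-18 receptor, which makes macrophages and lymphocytes respond to IL-18. It had 27.9, 25.1 and 102 in Gata6-KO and 284, 211 and 179 in Gata6-WT. Every Gata6-KO array was lower, with Gata6-KO replicate 3 the highest of them (means 51.5 ± 43.3 and 225 ± 53.8, 3.97-fold, log2 -1.99 ± 0.41, limma adjusted p = 0.014). A second, dimmer probe set was below the filter and had 10.8, 20.0 and 45.7 against 104, 89.2 and 67.7. Because 2 Gata6-KO signals were under the filter level of 47.5, the gene passed through its wild type signals, and with pseudocounts of 1 and 64 the log2 difference was -2.38 and -1.37. The call was lost without Gata6-WT replicate 1 (log2 -1.82, limma adjusted p = 0.053) and in replicates 2 and 3 alone (log2 -1.60, limma adjusted p = 0.12). IL-18 acts on natural killer cells, whose 4 markers summed to 24.2 to 119 in Gata6-KO and 95.2 to 117 in Gata6-WT. All 4 were below the filter. Eomes was lower in Gata6-KO without overlap (2.15 to 12.4 against 31.5 to 55.6), and the groups of Ncr1, Gata3 and Klrd1 overlapped. The part of such cells in the Il18rap values was not tested.

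Il1r1, the signalling receptor for IL-1, had 12.9, 11.4 and 10.1 in Gata6-KO and 155, 81.9 and 134 in Gata6-WT at the brighter of its 2 probe sets. These groups did not overlap, and the mean fell below the filter. In a fit with no filter the gene passed (limma adjusted p = 0.0088, where 7.50% of genes passed). The Gata6-KO signals were below the pseudocount of 16, so the size of the difference is not fixed by these data: on the log2 scale it was -3.28, -2.31 and -1.29 with pseudocounts of 1, 16 and 64. The other Il1r1 probe set was at 1.49 to 20.7 on all arrays. Il1rap, the accessory chain for IL-1 and IL-33, had 581, 479 and 455 against 607, 479 and 437 (log2 0.00, 95% interval -0.39 to 0.38, limma adjusted p = 1.00). Il1r2, a decoy receptor for IL-1, had 12.0, 39.99 and 79.6 against 63.7, 71.3 and 41.9, and Il1rl2 and Il18r1 had no signal above 78.1. In the same annotation 6 members of this family form 1 run on chromosome 1, in the order Il1r2, Il1r1, Il1rl2, Il1rl1, Il18r1, Il18rap, and Il1r1 and Il18rap are not neighbours in it.

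The TNF receptor family gave no call in 7 tested genes (limma; 1 gene, Tnfrsf11a, had an unadjusted p under 0.05), a count too small to set against the 13.1% of all genes that passed. Tnfrsf1a and Tnfrsf1b, the main and the inducible TNF receptor, had 5272, 5782 and 5867 against 4447, 5324 and 5047, and 2361, 2301 and 1557 against 1615, 1852 and 2188. Their intervals on the log2 scale were -0.05 to 0.44 and -0.28 to 0.53. Tnfrsf13b encodes TACI, a receptor of the B cell factors BAFF and APRIL, and had 1438, 1043 and 1044 against 1230, 1075 and 1114 (log2 0.03, 95% interval -0.31 to 0.37, limma adjusted p = 0.93). Tnfrsf21, the death receptor DR6, was at log2 0.09 (95% interval -0.24 to 0.41). Its second, dimmer probe set had separate groups, at 812 to 893 in Gata6-KO against 478 to 778 in Gata6-WT, but did not pass (log2 0.40, limma adjusted p = 0.20). Tnfrsf9, an activation receptor also called CD137, was near the filter level at 50.6 to 77.7 on all arrays.

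Tnfrsf11a encodes RANK, the receptor that drives osteoclast formation from macrophage precursors. It had 316, 245 and 417 in Gata6-KO and 210, 158 and 211 in Gata6-WT, and its second probe set 246, 241 and 198 against 166, 154 and 120. Both probe sets had separate groups, yet neither passed (log2 0.69 ± 0.23 and 0.59 ± 0.21, limma adjusted p = 0.090 and 0.11). With the mean of both probe sets the log2 difference was 0.64 and passed (limma adjusted p = 0.030). Tnfrsf14, the herpesvirus entry mediator HVEM, varied too much to compare, with 130, 93.3 and 17.8 against 221, 170 and 12.7; replicate 3 was low in both genotypes and the interval was -2.20 to 1.38. The IL-17 receptor gene Il17ra had 2555, 1906 and 2009 against 1923, 1928 and 2199 (log2 0.09, 95% interval -0.22 to 0.39, limma adjusted p = 0.75), and its partner Il17rc was at 6.61 to 41.5 over its 2 probe sets, below the filter.

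**Figure D3:**
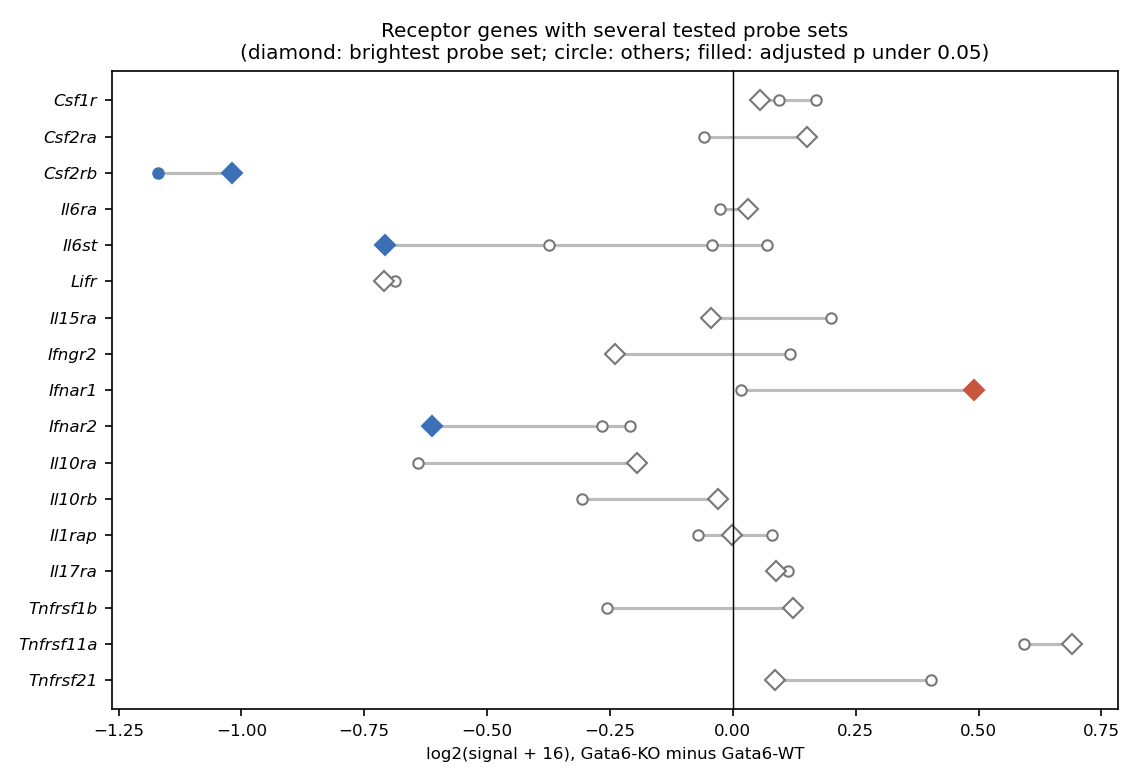
Log2 difference (Gata6-KO minus Gata6-WT) of each tested probe set of the 17 receptor genes with several, with diamonds for the brightest probe set and circles for the others. Filled symbols passed an adjusted p of 0.05; for Csf2rb all tested probe sets did, whereas Il6st, Ifnar1 and Ifnar2 passed at their brightest probe set only.

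Of the 52 tested receptor probe sets 11 passed (limma; 10.8% of all tested probe sets), and in the 17 genes with several, 0 had calls of both signs. Among the 10 genes that changed, 4 had several: Csf2rb passed at both, and Il6st, Ifnar1 and Ifnar2 at 1 each, as the plot of probe sets shows. The annotation used here does not give the part of each transcript that a probe set reads.

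Ratios of partner chains were taken within each array from the brightest probe sets, as a description. The log2 ratio of Ifnar1 to Ifnar2 was -1.76, -2.02 and -1.91 in Gata6-KO and -3.05, -3.05 and -2.91 in Gata6-WT. It was 1.10 higher in Gata6-KO, a 2.15-fold shift that was larger than the spread of either group (exact permutation p = 0.1, the smallest that 3 against 3 arrays allow, two-sided). Because both genes had separate groups in opposite directions, the separation of this ratio and its p-value had to follow. The ratio of Ifngr1 to Ifngr2 was 1.08 higher and that of Csf2ra to Csf2rb 1.17 higher, also without overlap. Il6ra to Il6st was 0.74 higher, with Gata6-KO values of 1.38 to 1.91 and Gata6-WT values of 0.54 to 1.298. Csf2rb to Csf2rb2 was 0.52 lower without overlap, at 1.81 to 2.09 against 2.40 to 2.49, so the call of the first gene and not the second went with a measured shift between them. Ratios of Lifr and Il27ra to Il6st, Il3ra to Csf2rb, Il10ra to Il10rb and Crlf2 to Il7r overlapped between genotypes. With the mean of all tested probe sets of each gene, the ratio of Il6ra to Il6st was 0.27 higher with overlapping groups, that of Ifnar1 to Ifnar2 was 0.62 higher without overlap, and that of Il27ra to Il6st was 0.93 lower without overlap. A shift in a ratio shows unequal change of its genes and not which of them changed.

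**Figure D4:**
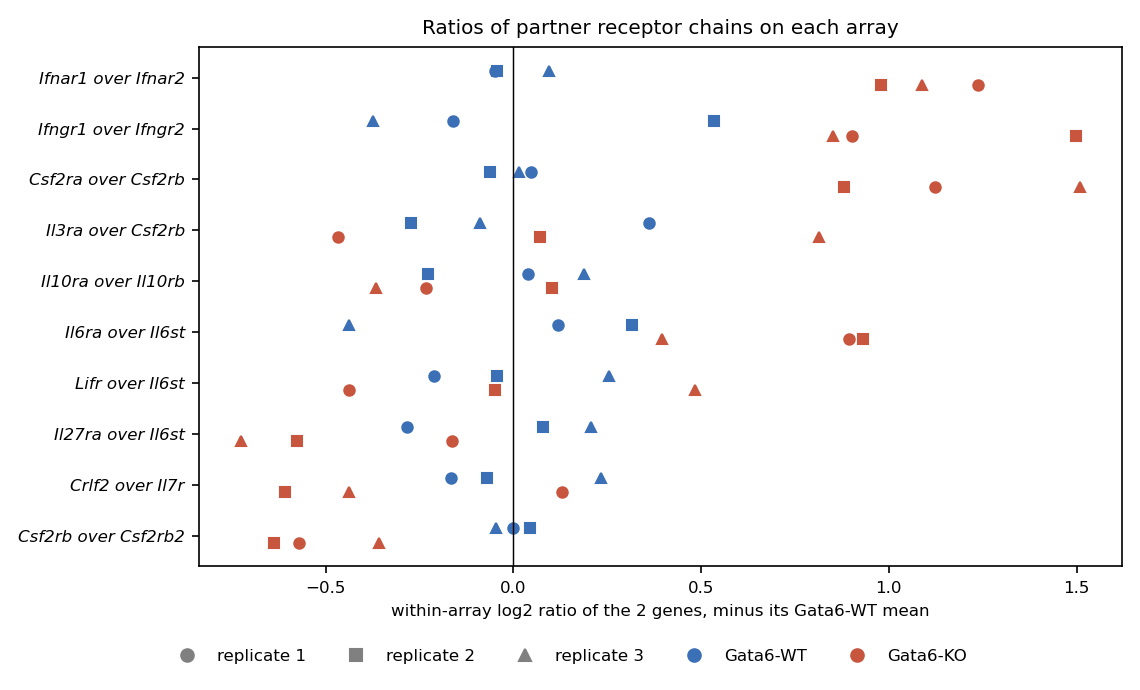
Within-array log2 ratio of 2 partner receptor genes, shown as the distance from its Gata6-WT mean, for 10 pairs at their brightest probe sets. Points are single arrays (blue Gata6-WT, red Gata6-KO, a symbol per replicate number); Ifnar1 over Ifnar2, Ifngr1 over Ifngr2, Csf2ra over Csf2rb, Il6ra over Il6st and Csf2rb over Csf2rb2 have separate groups.

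Ligands and soluble inhibitors of these receptors were taken from a list of 48 genes, of which 23 were tested, 3 fell and 0 rose (limma; 7 had an unadjusted p under 0.05). That is 13.0%, beside 13.1% of all genes, with a median log2 difference of 0.05. Csf1, the growth factor of the CSF1 receptor, had 118, 92.0 and 98.9 in Gata6-KO and 561, 465 and 398 in Gata6-WT (means 103 ± 13.4 and 474 ± 81.6, 4.10-fold, log2 -2.04 ± 0.20, limma adjusted p = 0.00024). Its other 3 tested probe sets had log2 differences of -1.29, -0.68 and -0.39 and did not pass. Csf1 thus fell at 1 probe set while the Csf1r arrays overlapped.

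Tnfsf13b, which encodes the TACI ligand BAFF, had 340, 319 and 129 against 876, 1094 and 844 (means 263 ± 116 and 938 ± 136, log2 -1.87 ± 0.31, limma adjusted p = 0.0048). A second, dimmer probe set was at -0.56 and did not pass. Il18bp, a secreted inhibitor that binds IL-18, had 25.7, 136 and 102 against 303, 375 and 394 (log2 -2.03 ± 0.42, limma adjusted p = 0.014). In all 3 of these genes the lowest Gata6-WT array was above the highest Gata6-KO array (background 19.4% of all tested genes). They were named because they passed on the same arrays, which favours separate groups, so this is no separate support. Tnfsf13b and Il18bp are listed with the receptor genes Tnfrsf13b, which did not pass, and Il18rap, which fell.

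**Figure D5:**
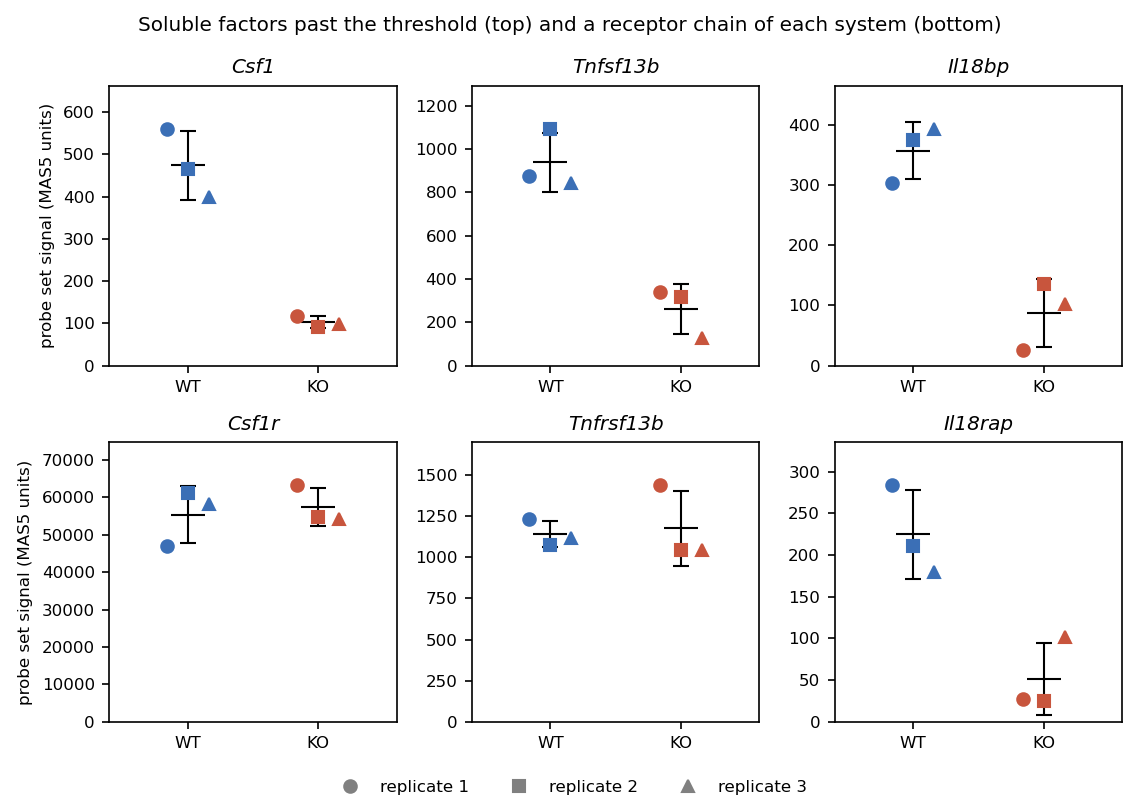
Signal (linear MAS5 units, axis from 0) on each array of Csf1, Tnfsf13b and Il18bp in the top row and of Csf1r, Tnfrsf13b and Il18rap in the bottom row. Points are arrays with a symbol for each replicate number, and bars are the mean and SD of 3 arrays; groups overlap for Csf1r and Tnfrsf13b and are separate in the other panels.

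Further receptors of the same families, 48 genes of which 26 were tested, had 1 higher and 2 lower (11.5%, beside 13.1% of all genes; median log2 0.10). Cd40, a TNF receptor that responds to T cell help, rose from 1096 ± 408 to 1926 ± 159 (log2 0.86, limma adjusted p = 0.034), and its 3 probe sets all passed. Il13ra1, which joins the IL-4 receptor chain to bind IL-13, fell from 883 ± 106 to 490 ± 13.3 (log2 -0.82, limma adjusted p = 0.0050), and its other 3 tested probe sets were at -0.84, -0.63 and -0.38 and did not pass. The growth hormone receptor gene Ghr fell from 193 ± 50.2 to 76.7 ± 24.2 (log2 -1.18, limma adjusted p = 0.035), and its other tested probe set was at -0.81 and did not pass. The count of 3 was 1 without Gata6-KO replicate 1 or without Gata6-KO replicate 3, and 0 in replicates 2 and 3 alone (limma; 5 had an unadjusted p under 0.05).

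Of 50 genes of signal transduction below these receptors, 44 were tested, 2 rose and 5 fell (15.9%, beside 13.1% of all genes; median log2 -0.05). Socs3, an inhibitor of gp130 and G-CSF receptor signalling that these cytokines induce, had 2201, 2847 and 2178 in Gata6-KO and 3979, 5081 and 7617 in Gata6-WT. It fell by 1.16 on the log2 scale (limma adjusted p = 0.0087), and all 3 of its probe sets passed. Socs6, a related inhibitor, rose from 723 ± 153 to 1811 ± 362 (log2 1.31, limma adjusted p = 0.0028), and its 3 tested probe sets passed at log2 1.04 to 1.45. Traf3ip2, the adaptor of the IL-17 receptor, fell from 312 ± 25.0 to 142 ± 15.4 (log2 -1.06, limma adjusted p = 0.0061). Stat4, a factor downstream of IL-12, rose from 577 ± 132 to 1002 ± 200 (log2 0.78, limma adjusted p = 0.038). Pias3 was at log2 -0.81, the IL-1 receptor kinase gene Irak1 at -0.69 and Birc2, which binds TRAF adaptors, at -0.67 (limma adjusted p = 0.032, 0.020 and 0.012). Irak1 passed at 1 of its 4 tested probe sets, the second Pias3 probe set was at -0.14 and did not pass, and the count of 7 was 4 without Gata6-KO replicate 1 and 3 in replicates 2 and 3 alone.

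The direction of all 10 changed receptor genes was the same in the male-type pair and in the female-type arrays. Because the groups of these genes did not overlap, this had to be so, and it is no separate support. In replicate 1 the log2 differences were -0.73 for Csf2rb, -0.66 for Csf3r, -0.51 for Il6st, -0.64 for Crlf2, -0.67 for Ifnar2, 0.94 for Ifngr1 and 0.62 for Ifnar1. In replicates 2 and 3 those genes had -1.16, -1.27, -0.81, -0.86, -0.58, 0.80 and 0.43. For Il18rap the values were -2.77 and -1.60. A limma interaction of genotype with replicate 1 gave an adjusted p of 1.00 for each of the 30 genes, with the smallest unadjusted values for Csf1r (0.012) and Il27ra (0.019). A single male-type array of each genotype cannot show whether the sexes differ. Markers of other cell types were low, with summed signals of B cell markers at 244 to 328 in Gata6-KO and 208 to 317 in Gata6-WT, eosinophil markers at 101 to 152 and 78.9 to 187, dendritic cell markers at 240 to 486 and 232 to 309, and mesothelial and stromal markers at 151 to 209 and 176 to 234. Few of the markers outside macrophages were tested: 2 each for B cells, mast cells, neutrophils and dendritic cells, and 1 for T cells. No marker was tested for natural killer cells, eosinophils or mesothelial and stromal cells. Of the tested ones S100a8 was the 1 that passed, a count too small to set against the 13.1% of all genes. The part of other cells in the receptor values was not tested.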

How the data were processed

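Total RNA of 6 pooled and sorted macrophage samples was measured on 1 array each. The deposited values are linear intensities, 1 signal per probe set; the submitters' processing notes name MAS5 and affy without versions. The trimmed mean of each array was 500, so the authors' intensity scale was set before deposit. No detection calls were used, and low signals are noisy. The number of arrays limits precision, and p-values measure the spread between 3 pools per genotype.

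Symbols came from the array annotation (34958 probe sets with 1 symbol, 932 with several, 9211 with none here; 0 needed an update from the GRCm38.p6 gene table). Signals were converted to log2(signal + 16) without further scaling, 64 control probe sets were left out, and probe sets with a mean above the 40th percentile (5.99, a signal of 47.5) were tested, 27022 in all. limma 3.58.1 (R 4.3.3, eBayes with a trend) gave two-sided tests of Gata6-KO against Gata6-WT, with Benjamini-Hochberg adjustment over all tested probe sets and a threshold of 0.05; folds understate the change of low signals. A gene is represented by its brightest tested probe set. The procedure was tested on simulated data. The receptors and the lists of ligands, further receptors, signal transducers and markers were chosen with earlier results of these data known; the 4 GATA forms were extended from AGATAA after the data were seen. Named genes are all listed receptors and, from the other lists, up to 4 genes past the threshold in each direction with the largest change; Birc2, outside that rule, was added after its value was seen. Partner ratios with all probe sets, the Il1r1 pseudocounts and the count without Il18rap were added after seeing the data. Figures used matplotlib 3.10.9.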

Additional observations from a re-analysis of the deposited data

How the results depend on the processing

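The fit was repeated with other pseudocounts, filters, scalings, variance models, thresholds and probe set rules and with each array left out, at most 20 variations per gene; at the 60th percentile filter Il18rap, Il7r, Tnfrsf9 and Tnfrsf14 were not tested. The 10 changed receptor genes kept their direction in all 199 repeated values and their call in 166. Because their groups did not overlap, most of these variations could not have changed a direction. The 20 others gained a call in 7 of 397 and changed sign, without a call, in 38. Without the variance trend 1459 probe sets, 3 receptor genes (1 higher, 2 lower), 1 further receptor and 2 signal transducers passed. In replicates 2 and 3 alone the counts were 1615, 6 (1 higher), 0 (limma; 5 at an unadjusted p under 0.05) and 3. At an adjusted p under 0.01 they were 1251, 6 (4 lower), 1 and 3, and with a 2-fold minimum 1256, 5 (1 higher, 4 lower), 1 and 3. With 1 array left out, probe sets ranged from 1851 to 2465 (1886 without Gata6-KO replicate 2, 1879 without Gata6-WT replicate 2), further receptors from 1 to 2 and signal transducers from 4 to 6. The count of receptor genes was 7 without Gata6-WT replicate 1 and 8 without Gata6-KO replicate 2 or Gata6-WT replicate 2. It was 10 without each of the other arrays. Same-numbered arrays deviated together only weakly (r = 0.13, 0.07 and 0.07 for replicates 1, 2 and 3, each highest with its own number), so the numbers were not taken as pairs; with the replicate block 3076 probe sets and 11 receptor genes passed, Lifr being added (limma adjusted p = 0.0044), and no other receptor call changed. Depth in the sense of signal over background limits Osmr, Il1r1, Il1r2, Il1rl2, Il18r1 and Il17rc, which were below the filter.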
